A study of Mus musculus with 2 samples.

Results

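The mitochondrial ribosomal protein genes are the nuclear genes that encode the protein subunits of the ribosome inside mitochondria. They were taken here as the protein-coding genes on autosomes whose symbols begin with Mrpl (large subunit) or Mrps (small subunit) and a number in the GENCODE M21 annotation of the mouse genome GRCm38. This gave 78 of 22028 protein-coding genes, 49 of the large subunit and 29 of the small subunit. H3K4me3, a histone mark of active gene starts, had been mapped in group 2 innate lymphoid cells (ILC2s, lymphocytes that release type 2 cytokines without an antigen receptor) from the lungs of 8-week-old mice by CATCH-seq, a carrier-assisted ChIP-seq. One library, called the control library here, came from offspring of control mothers, which had received PBS with alum intraperitoneally and PBS intranasally. The other, the maternal-asthma library, came from offspring of asthmatic mothers, sensitised 2 times with 100 µg of ovalbumin (OVA) in alum and then given 500 µg of OVA intranasally per dose, at intervals of 2 to 3 days, between gestation days 4 and 17. All mice were wild-type C57BL/6J, both groups of mothers were mated with untreated males, and the study's legends state 1 pregnant dam per group. The study describes adult lung ILC2s as CD45+ Lin- ST2+, in one place also as CD90.2+, and the gate used for these libraries is not given in the sources used here. Each library was made from about 3000 ILC2s and immunoprecipitated for H3K4me3 after MNase digestion, and there was 1 library per group. No difference between the groups could therefore be tested, and maternal treatment, dam and library cannot be told apart.

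Mitochondrial ribosomes translate the few messages of the mitochondrial genome, which encode core subunits of the respiratory chain and of ATP synthase. All protein subunits of these ribosomes are made in the cytosol from nuclear genes and imported. Many descend from the bacterial ribosome, and others occur only in mitochondria. H3K4me3 sits on the nucleosomes that flank a transcript start, most strongly on those downstream of it.

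The deposited lists held 42126 peaks in the control library and 51610 in the maternal-asthma library, with median widths of 315 and 249 bp. The number of fragments at each summit was recovered from the authors' fold and −log10 p, and intervals given below cover counting error only. The caller's background was 96.1 and 100.4 fragments per 10 kb, and the narrowest peaks, which may reflect the fragment length used, were 190 and 156 bp. A shorter fragment length lowers the height and width of a peak, and the ratio of these narrowest widths was 0.821. Its part in the differences of height and width given below was not tested. Of 13 ILC2 markers, 11 were marked at a start in the control library and 8 in the maternal-asthma library. Il5, Il7r and Gata3 were listed in the control library alone, 27.3% of the 11 (6.02 to 61.0%). Of all protein-coding genes marked in the control library, 19.1% were not listed in the other. Icos and Il13 had no start peak in either list. None of 5 T cell, 5 B cell, 6 macrophage, 5 neutrophil or 5 fibroblast markers had a start peak in either list. Of the epithelial and endothelial markers, Cdh1, Epcam and Kdr had one in the control library and Sftpb in the maternal-asthma library. In the control list Epcam stood at percentile 85.7 of −log10 q, Cdh1 at 60.7 and Kdr at 4.71. The median of the marked ILC2 markers there was 73.8. Sftpb stood at 36.2 in the other list, where that median was 39.2. Admixture of other cells was not tested.

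Promoters of 8 genes are shown here because the results below turn on them. RefSeq gave a promoter on GRCm38.p6, from 250 bases before to 50 after a transcript start, for 69 of the 78 genes. Mrps22 had the highest percentile of −log10 q in the control library (chr9:98601630-98601929, minus strand). Mrpl36 had the highest percentile in the maternal-asthma library (chr13:73330759-73331058, plus strand). Mrps11 (chr7:78782881-78783180, plus strand) starts beside Mrpl46, another gene of the set, and their promoter windows overlap. Mrps12 faces Sars2, the mitochondrial seryl-tRNA synthetase (chr7:28741772-28742071, minus strand). Mrps27 (chr13:99344536-99344835, plus strand) and Mrpl32 (chr13:14612988-14613287, minus strand) between them hold the ETS, YY1 and NRF1 motifs counted below. Mrpl16 had a start peak in the control library alone (chr19:11770165-11770464, plus strand), and Mrpl34 had none in either list (chr8:71464676-71464975, plus strand). Capitals mark the 8 motifs that were searched on both strands, none of which contains another.
Mrps22: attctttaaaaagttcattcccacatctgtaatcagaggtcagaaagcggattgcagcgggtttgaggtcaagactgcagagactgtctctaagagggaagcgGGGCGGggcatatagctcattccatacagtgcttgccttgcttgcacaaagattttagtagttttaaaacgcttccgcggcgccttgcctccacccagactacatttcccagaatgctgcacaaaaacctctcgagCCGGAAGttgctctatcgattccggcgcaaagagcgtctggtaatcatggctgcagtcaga
Mrpl36: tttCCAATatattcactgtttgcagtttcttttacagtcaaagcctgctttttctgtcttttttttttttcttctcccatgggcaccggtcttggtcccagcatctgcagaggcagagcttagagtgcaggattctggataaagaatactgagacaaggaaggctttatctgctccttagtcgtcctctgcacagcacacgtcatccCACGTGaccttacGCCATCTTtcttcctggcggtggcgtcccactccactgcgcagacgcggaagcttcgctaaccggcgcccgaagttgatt
Mrps11: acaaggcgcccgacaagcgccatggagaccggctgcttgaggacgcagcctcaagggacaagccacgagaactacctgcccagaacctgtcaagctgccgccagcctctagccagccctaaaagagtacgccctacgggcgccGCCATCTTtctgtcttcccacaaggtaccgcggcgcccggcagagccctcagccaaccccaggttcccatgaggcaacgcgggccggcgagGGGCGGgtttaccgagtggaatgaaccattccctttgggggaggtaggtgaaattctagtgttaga
Mrps12: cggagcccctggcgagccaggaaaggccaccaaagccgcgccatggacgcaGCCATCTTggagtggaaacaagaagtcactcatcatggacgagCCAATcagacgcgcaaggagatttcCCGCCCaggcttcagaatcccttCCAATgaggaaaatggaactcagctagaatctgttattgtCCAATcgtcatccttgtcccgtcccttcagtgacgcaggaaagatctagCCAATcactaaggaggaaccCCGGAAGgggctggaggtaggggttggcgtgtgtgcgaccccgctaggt
Mrps27: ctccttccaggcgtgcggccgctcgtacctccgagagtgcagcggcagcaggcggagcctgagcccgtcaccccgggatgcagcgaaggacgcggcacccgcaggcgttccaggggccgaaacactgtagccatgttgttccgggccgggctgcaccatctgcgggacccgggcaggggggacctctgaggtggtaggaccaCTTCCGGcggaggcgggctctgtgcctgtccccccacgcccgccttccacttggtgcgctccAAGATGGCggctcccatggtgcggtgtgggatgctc
Mrpl32: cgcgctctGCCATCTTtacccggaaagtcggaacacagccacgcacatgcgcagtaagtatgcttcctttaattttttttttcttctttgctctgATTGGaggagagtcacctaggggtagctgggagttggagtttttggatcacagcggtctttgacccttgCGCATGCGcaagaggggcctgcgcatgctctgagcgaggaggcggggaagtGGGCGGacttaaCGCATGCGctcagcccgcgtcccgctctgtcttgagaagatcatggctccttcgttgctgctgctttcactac
Mrpl16: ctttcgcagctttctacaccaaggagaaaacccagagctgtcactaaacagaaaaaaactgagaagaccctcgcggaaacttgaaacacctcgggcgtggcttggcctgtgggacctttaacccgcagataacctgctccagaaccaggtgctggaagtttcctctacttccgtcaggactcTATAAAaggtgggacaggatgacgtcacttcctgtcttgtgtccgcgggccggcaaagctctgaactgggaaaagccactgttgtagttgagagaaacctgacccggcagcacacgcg
Mrpl34: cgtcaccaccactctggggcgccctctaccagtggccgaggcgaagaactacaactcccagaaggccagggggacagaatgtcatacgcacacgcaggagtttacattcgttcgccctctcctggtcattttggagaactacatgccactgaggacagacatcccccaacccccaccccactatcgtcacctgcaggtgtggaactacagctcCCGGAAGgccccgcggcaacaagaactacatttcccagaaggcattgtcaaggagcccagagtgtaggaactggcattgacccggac

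H3K4me3 was listed at the start of nearly every gene of the set in the control library and of fewer in the maternal-asthma library. A start peak was a peak with at least 1 base within 1000 bp of an annotated transcript start of the gene. In the control library 75 of 78 genes had one (96.2%, exact Clopper-Pearson 95% interval 89.2 to 99.2%), against 50.9% of all protein-coding genes. In the maternal-asthma library 59 of 78 had one (75.6%, 64.6 to 84.7%), against 41.9% of all protein-coding genes. A start peak in the control library alone was found for 16 of the 78 (20.5%), against 9.71% of all protein-coding genes. None had a start peak in the maternal-asthma library alone, a class that held 0.722% of all protein-coding genes. Of the 75 genes with a start peak in the control library, 16 (21.3%, 12.7 to 32.3%) had none in the maternal-asthma library. On the full lists this share was near the background, as 19.1% of all protein-coding genes marked in the control library had none in the other list. At equal list length, with the 10000 highest peaks of each library, 60 of the 78 genes had a start peak in the control library and 8 in the maternal-asthma library, against 32.2% and 9.32% of all protein-coding genes. There 52 of the 78 were listed in the control library alone, against 23.7% of all protein-coding genes. Of the 60 genes marked in the control library at that length, these 52 (86.7%, 75.4 to 94.1%) had no start peak in the other list, against 73.8% of all marked protein-coding genes. A gene without a listed peak may hold signal below the caller's threshold, and the lists cannot tell fewer marked cells from a weaker mark in each cell.

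**Figure D1:**
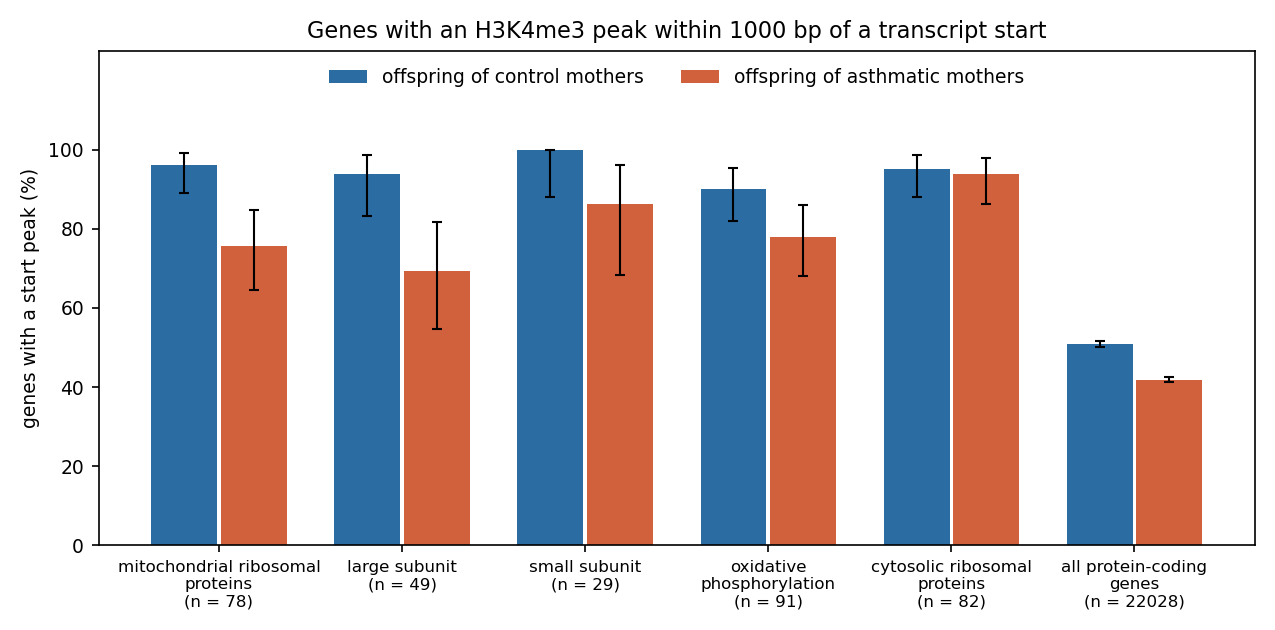
Share of genes with an H3K4me3 start peak (y axis, percent) for the mitochondrial ribosomal protein genes, their subunits, oxidative phosphorylation genes, cytosolic ribosomal protein genes and all protein-coding genes in each library. Bars are shares and error bars exact 95% intervals for counting error; the mitochondrial set stood at 96.2% and 75.6%, and the cytosolic set at 95.1% and 93.9%.

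Both subunits carried the mark. Over all protein-coding genes, 50.9% had a start peak in the control library and 41.9% in the maternal-asthma library. Of the large subunit genes, 46 of 49 had a start peak in the control library and 34 in the maternal-asthma library. Of the small subunit genes, all 29 had one in the control library and 25 in the maternal-asthma library. The share of marked genes that was not listed in the maternal-asthma library was 26.1% (14.3 to 41.1%) for the large and 13.8% (3.89 to 31.7%) for the small subunit, and these intervals overlapped. Proteins with a bacterial counterpart, such as Mrpl2 and Mrps12, and proteins found only in mitochondria, such as Mrps22 and Mrpl45, were split from background knowledge after the lists had been read. Among 47 genes with a bacterial counterpart, 45 and 35 had a start peak in the control and the maternal-asthma library. Among 31 mitochondrial ones, 30 and 24 did. Of the marked genes of these kinds, 22.2% (11.2 to 37.1%) and 20.0% (7.71 to 38.6%) were not listed in the maternal-asthma library, near the 19.1% of all marked protein-coding genes. Mrps36 is kept here by its symbol, although its protein is known as a subunit of the alpha-ketoglutarate dehydrogenase complex.

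The cytosolic ribosome kept more of its genes in both lists. Of 82 cytosolic ribosomal protein genes, 78 had a start peak in the control library and 77 in the maternal-asthma library. Only 1 of these 78 (1.28%, 0.0325 to 6.94%) was not listed in the maternal-asthma library, against 19.1% of all marked protein-coding genes. That interval lay below the 12.7 to 32.3% of the mitochondrial set, which held the share of all marked genes. Their median number of summit fragments in the control library was 30, against 26 for the mitochondrial set. Of 91 nuclear oxidative phosphorylation genes, whose products work beside those translated by the mitochondrial ribosome, 82 and 71 had a start peak. Of these 82, 11 (13.4%, 6.89 to 22.7%) were not listed in the maternal-asthma library, an interval that also held the 19.1% of all marked genes.

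The 16 genes listed in the control library alone spanned both subunits. They were Mrpl1, Mrpl2, Mrpl10, Mrpl11, Mrpl16, Mrpl24, Mrpl35, Mrpl38, Mrpl41, Mrpl52, Mrpl54, Mrpl55, Mrps10, Mrps16, Mrps21 and Mrps31. Mrpl10 and Mrpl11 encode proteins of the stalk and its base, where translation factors bind, and Mrpl2 and Mrpl16 proteins near the peptidyl transferase centre. Mrps16, a gene mutated in a human combined oxidative phosphorylation deficiency, encodes a small subunit protein with a bacterial counterpart. At their summits in the control library these genes held between 12 fragments (Mrpl11 and Mrpl35) and 28 fragments (Mrpl38), with a median of 22. The 59 genes listed in both libraries held 16 to 37 fragments in the control library, with a median of 27, so the ranges overlapped. The nearest peak in the maternal-asthma library lay 1624 bp from a start of Mrpl2 and 3434 bp from one of Mrpl38.

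Absence from the list of the maternal-asthma library went with few fragments in the control library, for this set and for all genes. With 14 or fewer control fragments, 3 of 3 genes of the set and 77.3% of all marked protein-coding genes had no start peak in the maternal-asthma library. With 15 to 19 fragments these were 3 of 6 genes and 52.2%, and with 20 to 24 fragments 5 of 20 and 20.2%. With 25 to 29 fragments, 5 of 26 genes of the set had none, against 7.13% of all marked genes, and no interval was computed for these small counts. These 5 were Mrpl24, Mrpl38, Mrpl54, Mrps10 and Mrps31, with 26, 28, 26, 25 and 26 fragments. With 30 or more fragments, none of 20 genes of the set was absent, against 2.44% of all marked genes.

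**Figure D2:**
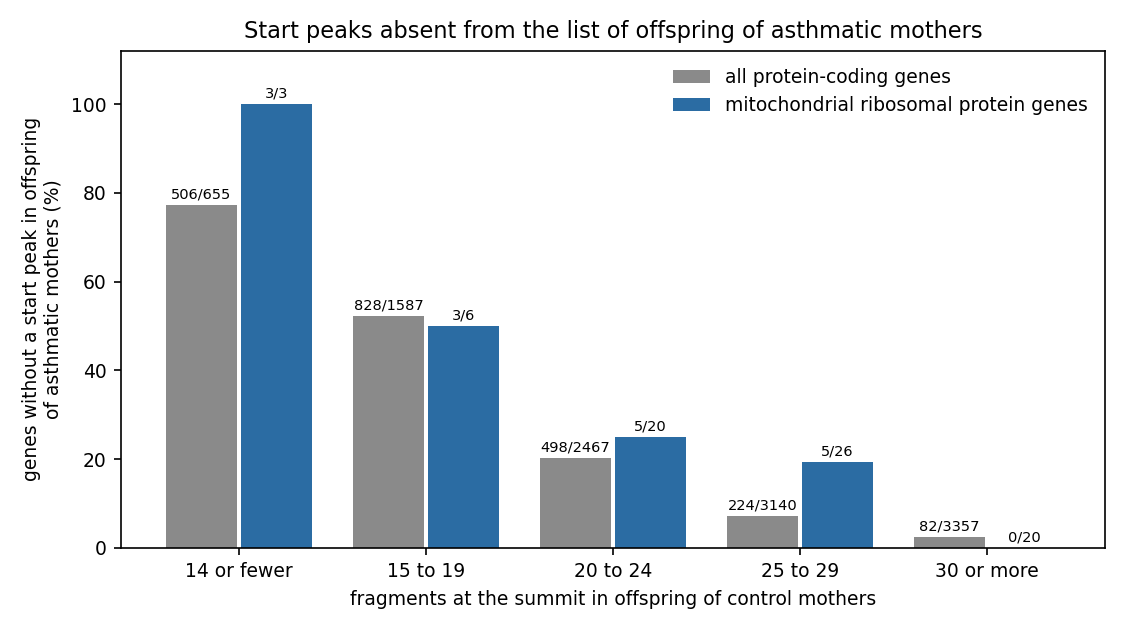
Share of marked genes without a start peak in the maternal-asthma library (y axis, percent) by the number of fragments at the summit in the control library (x axis, bins). Grey bars are all protein-coding genes and blue bars the mitochondrial ribosomal protein genes, with counts above each bar; shares of the set fall from 3 of 3 to 0 of 20.

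Mrpl22, Mrpl34 and Mrpl45 had no start peak in either list. Mrpl22 and Mrpl34 encode large subunit proteins with bacterial counterparts, and Mrpl45 one that lies at the exit of the polypeptide tunnel. Around Mrpl34 the nearest peak was 1327 bp away in the control library and 1354 bp away in the maternal-asthma library, just outside the limit, and it lay at a start of Abhd8. Around Mrpl22 it was 3076 and 3176 bp away, at a start of Gemin5, and around Mrpl45 it was 35139 and 35185 bp away, at a start of Npepps. The farthest peak inside the limit was that of Mrps18b, 591 and 656 bp from its start. None of the stretches of 75 bases sampled within 500 bp of the 5′ ends of these 3 genes had a copy elsewhere in the assembled chromosomes. The promoter of Mrpl34 printed above holds an ETS motif.

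Peak heights were lower in the maternal-asthma library at every gene of the set listed in both libraries. All 59 had fewer fragments at the summit in the maternal-asthma library, and so did 97.2% of all protein-coding genes with a start peak in both. The median went from 27 to 16 fragments, and the median ratio of maternal-asthma to control fragments was 0.60, against 0.61 over all genes. The set lay close to the other genes in this ratio. The ratio ran from 0.35 at Mrps22 to 0.89 at Mrpl15. The 95% Poisson intervals of both counts failed to overlap at 2 of the 59 genes (3.39%), Mrps22 and Mrps5, as they did at 3.34% of all protein-coding genes with a start peak in both lists.

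**Figure D3:**
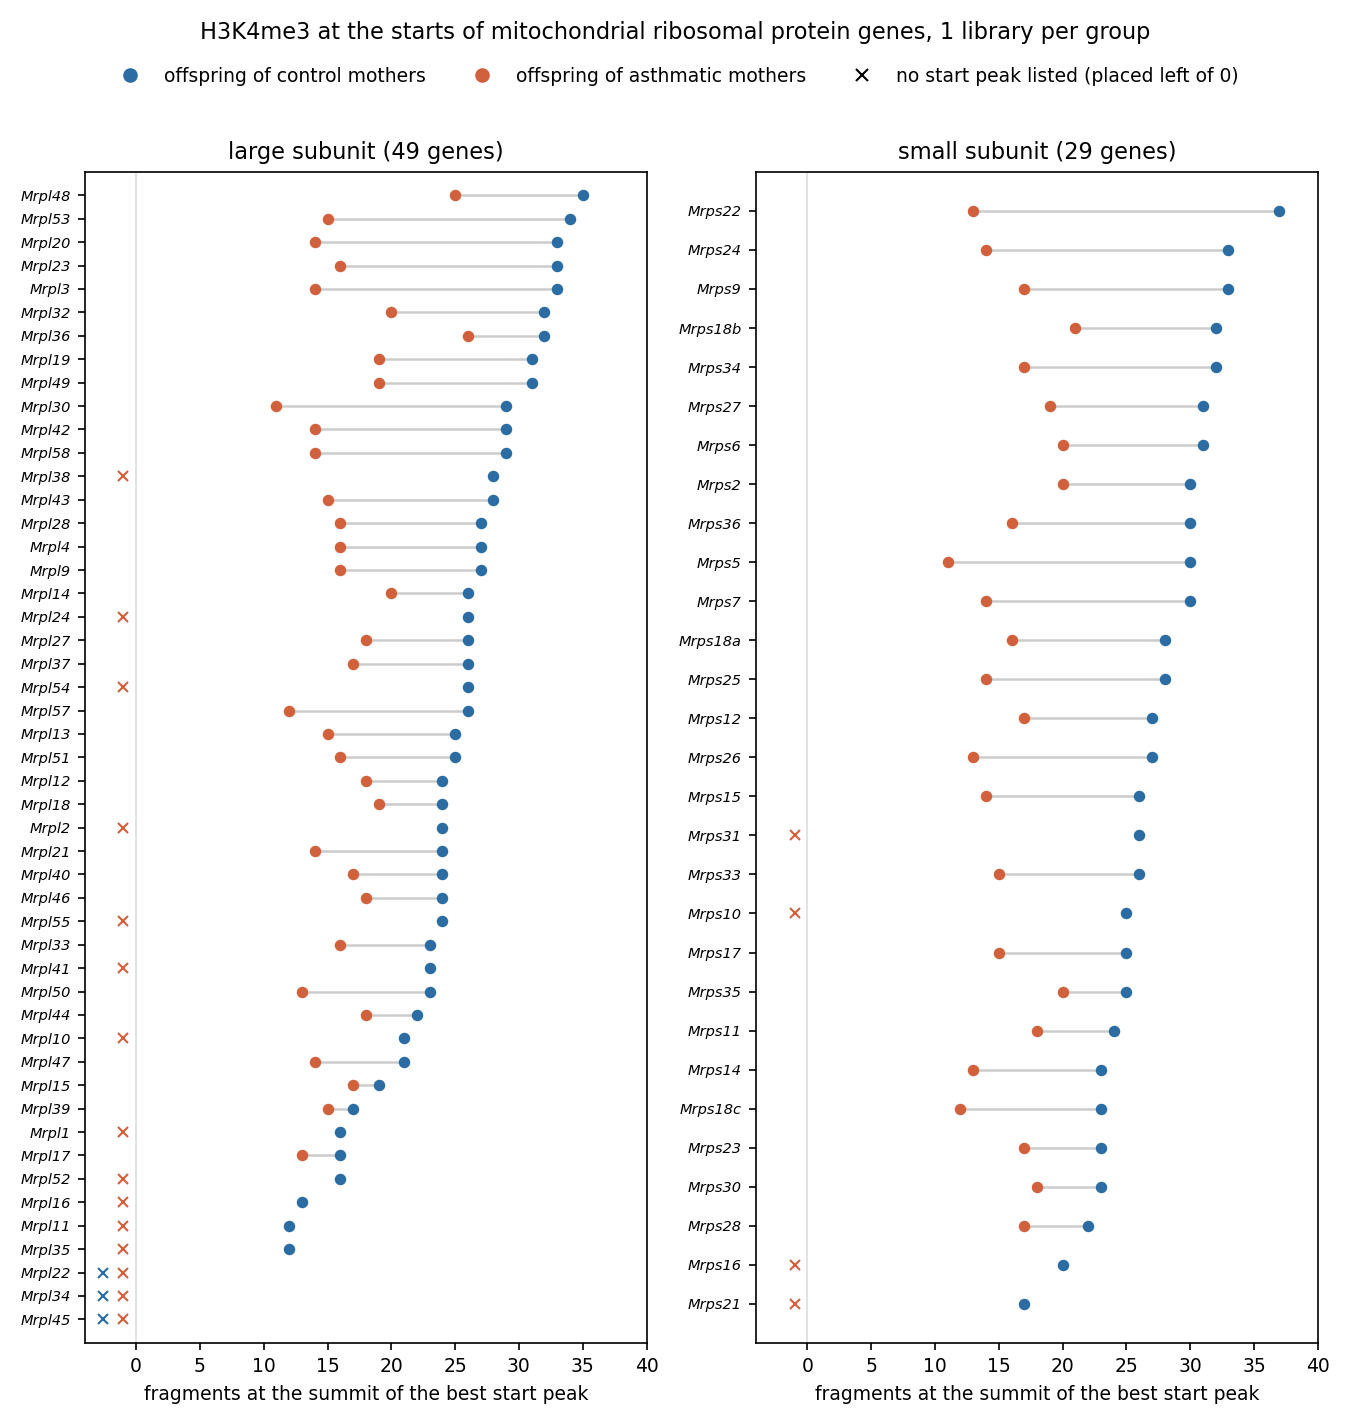
Fragments at the summit of the best start peak (x axis) for each of the 78 genes (y axis) of the large and small subunit, in the control library (blue) and the maternal-asthma library (red). Crosses left of 0 mark genes with no start peak listed; in each of the 59 genes with both points the red point lies left of the blue one.

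Mrps22 encodes a small subunit protein found only in mitochondria, and its mutation causes a respiratory chain deficiency in humans. The gene (ENSMUSG00000032459.9) lies on the minus strand at chr9:98588730-98601660. It held 37 fragments in the control library (26.1 to 51.0) and 13 in the maternal-asthma library (6.92 to 22.2). Its peak covered chr9:98601302-98601676 in the control library, a width of 375 bp, and 156 bp in the maternal-asthma library, the smallest width in that list. Mrps5, another small subunit gene, held 30 (20.2 to 42.8) and 11 fragments (5.49 to 19.7). Mrpl15, a large subunit gene with a bacterial counterpart, held 19 (11.4 to 29.7) and 17 (9.90 to 27.2), a difference within counting error.

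Since fold, p and q were not scaled between libraries, each gene was also placed within its own list by the percentile of its best −log10 q among all peaks. The median percentile of the set was 85.5 in the control library and 60.5 in the maternal-asthma library, against 82.7 and 60.6 over all protein-coding genes with a start peak. Of the 59 genes in both lists, 54 (91.5%) had a lower percentile in the maternal-asthma library, as had 86.3% of all protein-coding genes in both. In the control library the highest percentiles were those of Mrps22 (98.8), Mrpl3 (98.4), Mrpl20 (97.8), Mrps9 (97.6) and Mrpl19 (97.5). The lowest were those of Mrpl11 and Mrpl35 (both 12.4), Mrpl16 (22.4), Mrpl52 (47.0), and Mrpl1 and Mrpl17 (both 52.4). Of these 6, Mrpl17 alone had a start peak in the other list.

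In the maternal-asthma library the highest percentiles belonged to other genes. Mrpl36, a large subunit gene, had the highest at 94.8, with 26 fragments (17.0 to 38.1), and stood at 89.6 with 32 fragments (21.9 to 45.2) in the control library. This peak lay at a start inside the gene, whose promoter is printed above. A separate peak beside Ndufs6, at the gene's 5′ end, held 27 and 19 fragments in the control and the maternal-asthma library. Mrpl36 was followed by Mrpl48 (94.2), Mrps2 and Mrps35 (both 88.5) and Mrpl32 (87.0). The lowest were those of Mrpl30 and Mrps5 (both 13.0), Mrps26 (20.2), Mrpl57 and Mrps18c (both 24.1). Mrpl36, Mrpl15, Mrpl39, Mrpl18 and Mrps35 were the 5 genes with a higher percentile in the maternal-asthma library, and at equal list length Mrpl36 alone was higher, at 93.6 against 89.6. The median change of percentile was -24.2 points over the 59 genes and -20.6 points over all protein-coding genes in both lists. The lists differ in length, and with the 42126 highest peaks of each list these medians were -31.1 points over 57 genes and -25.5 points. On the full lists the falls were largest for Mrpl30 (from 92.3 to 13.0), Mrps5 (from 91.1 to 13.0), Mrps26 (from 84.1 to 20.2), Mrpl57 (from 87.4 to 24.1) and Mrps22 (from 98.8 to 36.2). Over the 59 genes the fragments in the 2 lists correlated weakly (Pearson's r = 0.20, Spearman's rho = 0.11), a description over genes of 1 library each.

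Peaks at the starts of the set were narrower in the maternal-asthma library. The median width of the best start peak of the set was 458 bp in the control library and 254 bp in the maternal-asthma library, against 528 and 339 bp over all protein-coding genes with a start peak. It was narrower in 57 (96.6%) and wider in 2 of the 59 genes in both lists, with a median change of -167 bp. This was near the background, as it was narrower in 92% of all protein-coding genes in both lists, with a median change of -185 bp. With peaks up to 1000 bp apart joined into domains, the medians of the set were 607 and 319 bp, against 656 and 405 bp. The widest domains in the control library were those of Mrps7 (1269 bp), Mrpl47 (1233 bp) and Mrpl18 (1105 bp), and the narrowest those of Mrpl35 (190 bp), Mrpl11 (224 bp) and Mrpl54 (251 bp). In the maternal-asthma library the widest were at Mrpl40 (1398 bp), Mrpl32 (1177 bp) and Mrpl47 (1127 bp), all with a gene starting on the opposite strand. The narrowest there were at Mrps22 (156 bp), Mrpl58 (157 bp) and Mrpl39 (159 bp), none of which has such a neighbour. Narrow domains also occurred beside such neighbours, at Mrpl54 in the control library and at Mrpl30 (163 bp) and Mrps34 (165 bp) in the maternal-asthma library.

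The genes of the set had 95 start peaks in the control library and 70 in the maternal-asthma library. Of the 70, 68 (97.1%, 90.1 to 99.7%) overlapped a control peak by at least 1 bp, against 95.6% of the start peaks of all protein-coding genes. Of the 95, 64 (67.4%, 57.0 to 76.6%) overlapped a peak of the maternal-asthma library, against 70.0%. More than 1 start peak was present at 21 genes in the control library and at 11 in the maternal-asthma library. These were 28.0% and 18.6% of the marked genes of the set, near the 28.3% and 22.7% of all marked protein-coding genes. Mrpl48 had 3 in each list, spread over 3 annotated starts, with 35 fragments at the highest control summit and 25 in the maternal-asthma library.

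Genes of the set often started close to a gene on the opposite strand. An annotated start on the opposite strand lay within 1000 bp of 37 of the 78 (47.4%, 36.0 to 59.1%), against 22.6% of all protein-coding genes and 35.5% of those with a start peak in the control library. The neighbour was protein-coding for 33 of them (42.3%), against 12.3% and 21.4%. Cytosolic ribosomal protein genes had an opposite start in 31.7% and oxidative phosphorylation genes in 45.1% of cases. A peak near such starts cannot be given to one of the genes. For 37 of the 78 genes of the set, no other gene of any kind started within 1000 bp, against 16218 of all 22028 protein-coding genes.

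Some of the neighbours, chosen after they were seen, are named here. Mrps12 faces Sars2 at 172 bp, Mrpl43 faces Twnk, the helicase of mitochondrial DNA, at 116 bp, and Mrpl36 and Mrpl47 face Ndufs6 and Ndufb5, both complex I genes, at 29 and 20 bp. Mrpl49 faces Fau, which encodes a cytosolic ribosomal protein, at 59 bp. Mrpl18 faces the chaperonin gene Tcp1 at 16 bp and Mrpl32 the proteasome gene Psma2 at 75 bp. Mrpl46 and Mrps11 were the only pair within the set, with starts 30 bp apart on chromosome 7. Both therefore had the same best peak, with 24 fragments in the control library (15.4 to 35.7) and 18 in the maternal-asthma library (10.7 to 28.4). The Mrps11 promoter printed above, with an SP/KLF and a YY1 motif, overlaps the window of Mrpl46, which holds an SP/KLF motif and a TATA box.

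All 37 genes with an opposite start had a start peak in the control library and 31 had one in the maternal-asthma library. Of the 41 without one, 38 and 28 had a start peak. Over all protein-coding genes these shares were 79.8% and 68.4% with an opposite start and 42.4% and 34.1% without. Of the marked genes of the set, 16.2% (6.19 to 32.0%) with and 26.3% (13.4 to 43.1%) without an opposite start were not listed in the maternal-asthma library, against 15.1% and 21.3% of all marked genes. Both intervals held the share of all genes. The 2 kinds of promoter differed in where the mark lay. The summit was downstream of the nearest start for 62.2% of the genes with an opposite start in the control library and 41.9% in the maternal-asthma library. Without an opposite start it was downstream for 86.8% and 85.7%. Over all marked protein-coding genes these shares were 62.5% and 62.1% with an opposite start, and 82.6% and 82.2% without one. More than 1 start peak was listed in the control library for 17 of the 37 marked genes with an opposite start (45.9%) and for 4 of the 38 without (10.5%), against 44.6% and 19.3% of all marked genes.

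**Figure D4:**
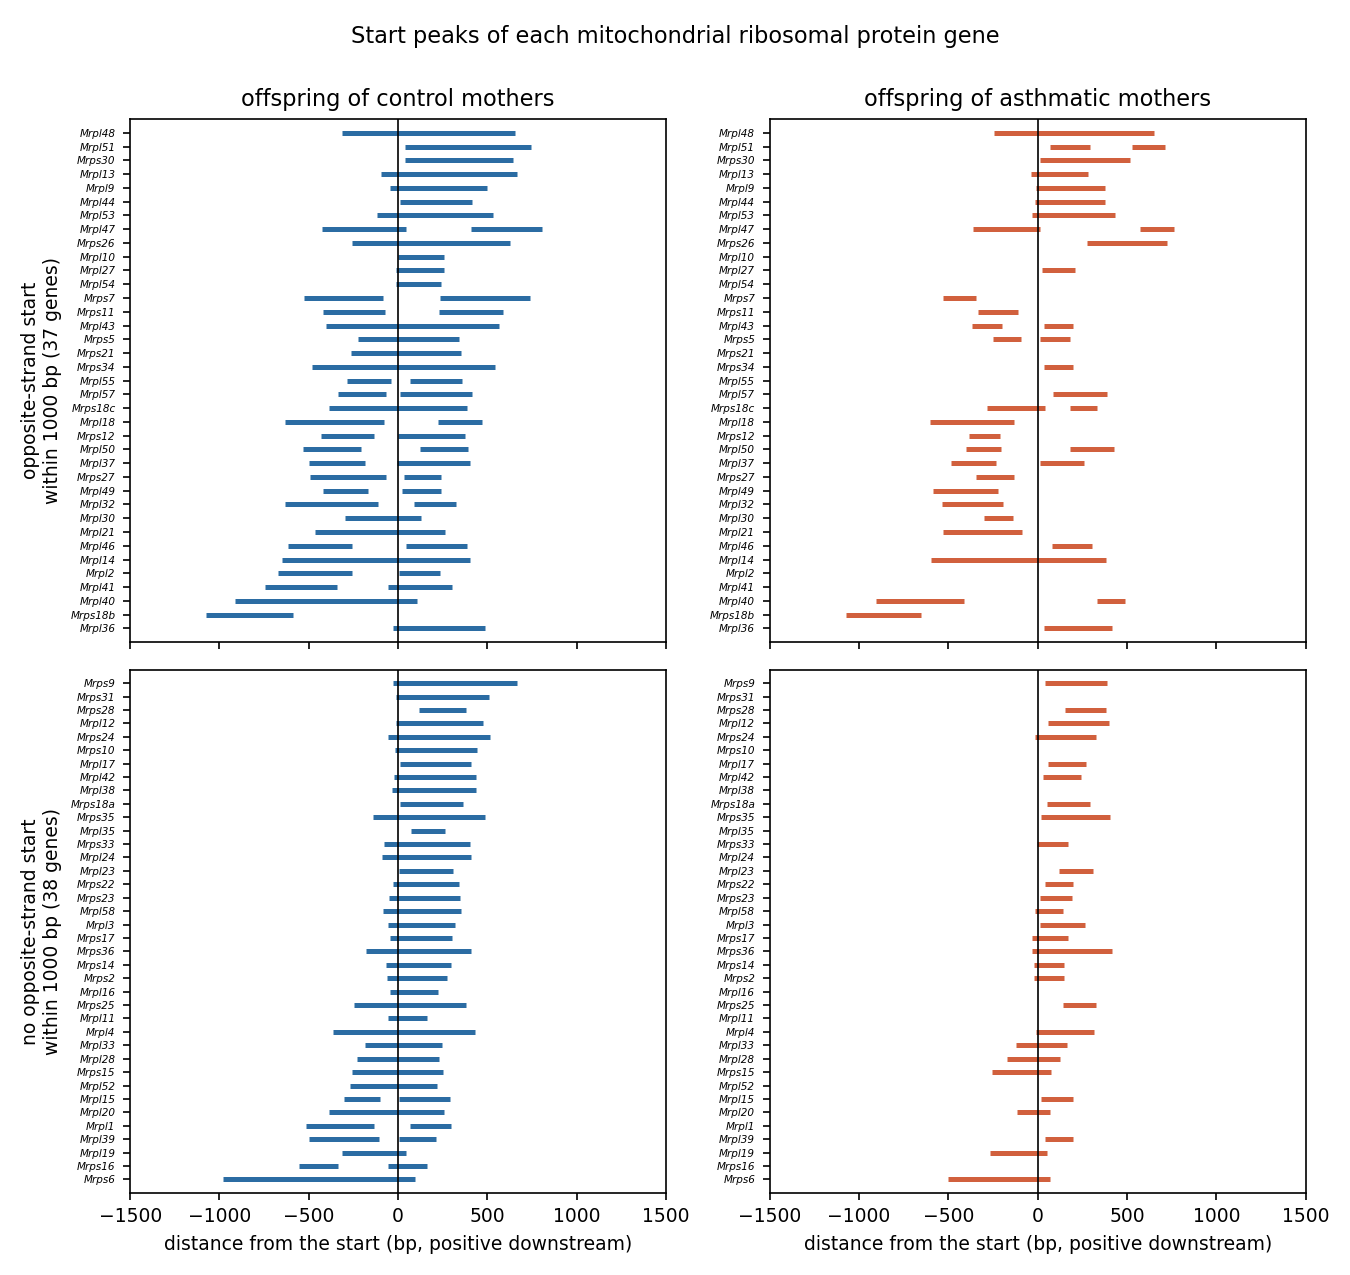
Extent of each start peak in bp (x axis) relative to the annotated start nearest to the control summit, 1 row for each of the 75 genes with a control start peak, for the control library (left, blue) and the maternal-asthma library (right, red). Genes with an opposite-strand start within 1000 bp (37, top) have peaks on both sides of 0 and those without (38, bottom) mostly at or downstream of 0; peaks of 3 genes at other starts over 1500 bp away fall outside the axis.

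Over the whole set the median summit lay 115 bp downstream of the nearest start in the control library, as over all protein-coding genes (115 bp). In the maternal-asthma library it lay at 71 bp, against 110 bp. The summits farthest downstream in the control library were at Mrpl47 (594 bp), Mrps7 (438 bp) and Mrpl50 (291 bp). Those farthest upstream were at Mrps18b (-759 bp), Mrpl2 (-499 bp) and Mrpl18 (-404 bp), each of which faces another gene. In the maternal-asthma library Mrps26 (330 bp), Mrps28 (300 bp) and Mrps24 (257 bp) were farthest downstream, and Mrps18b (-957 bp), Mrpl40 (-789 bp) and Mrps7 (-487 bp) farthest upstream. At Mrps7 the best peak thus lay on the gene's side in one list and on the side of Gga3, which starts 32 bp away, in the other. Its control peak downstream held 30 fragments and its control peak upstream 26, while only the upstream one was listed in the maternal-asthma library, with 14.

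The promoters of the set were searched for 8 short motifs. ETS factors, among them the GABP complex that acts on many nuclear genes for mitochondria, bind CCGGAAG, NRF1 binds CGCATGCG and YY1 binds AAGATGGC. The ETS motif was in 24 of 69 promoters (34.8%, 23.7 to 47.2%), against 12.3% of all 16538 protein-coding promoters and 20.5% of those of genes with a start peak in the control library. The YY1 motif was in 12 (17.4%, 9.32 to 28.4%), against 3.27% and 5.09%. The NRF1 motif was in 7 (10.1%, 4.18 to 19.8%), against 2.66% and 4.45%, an interval that held the share of marked genes. Cytosolic ribosomal protein genes held the ETS, YY1 and NRF1 motifs in 38.7%, 8.06% and 3.23% of promoters, and oxidative phosphorylation genes in 23.6%, 12.5% and 13.9%. Mrps12 and Mrps27, printed above, hold both an ETS and a YY1 motif, and Mrpl32 holds YY1 and NRF1 motifs.

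For the other 5 motifs the interval of the set held, or for SP/KLF lay below, the share of marked genes. The SP/KLF motif GGGCGG was in 34 (49.3%), against 48.2% of all promoters and 67.8% of marked ones, and CCAAT in 27 (39.1%), against 38.8% and 39.0%. The E-box CACGTG was in 5 (7.25%, against 8.10% and 10.5%), and the palindrome CTCGCGAG in 2 (2.90%, against 1.35% and 2.19%). The TATA box TATAAA was in 4 (5.80%, against 12.9% and 5.98%), one of them Mrpl16. None of the 8 was in 7 promoters. The median GC content was 58.3%, against 57.0% of all promoters and 61.7% of marked ones, and the ratio of observed to expected CpG was 0.818, against 0.602 and 0.793. Of 22 marked genes with an ETS motif 2 (9.09%, 1.12 to 29.2%) had no start peak in the maternal-asthma library, and of 44 without the motif 12 (27.3%, 15.0 to 42.8%). These intervals overlapped, and each held the share of all marked genes of its kind, 13.7% with and 20.1% without the motif. A motif is a match of letters, and whether a factor binds it was not measured.

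**Figure D5:**
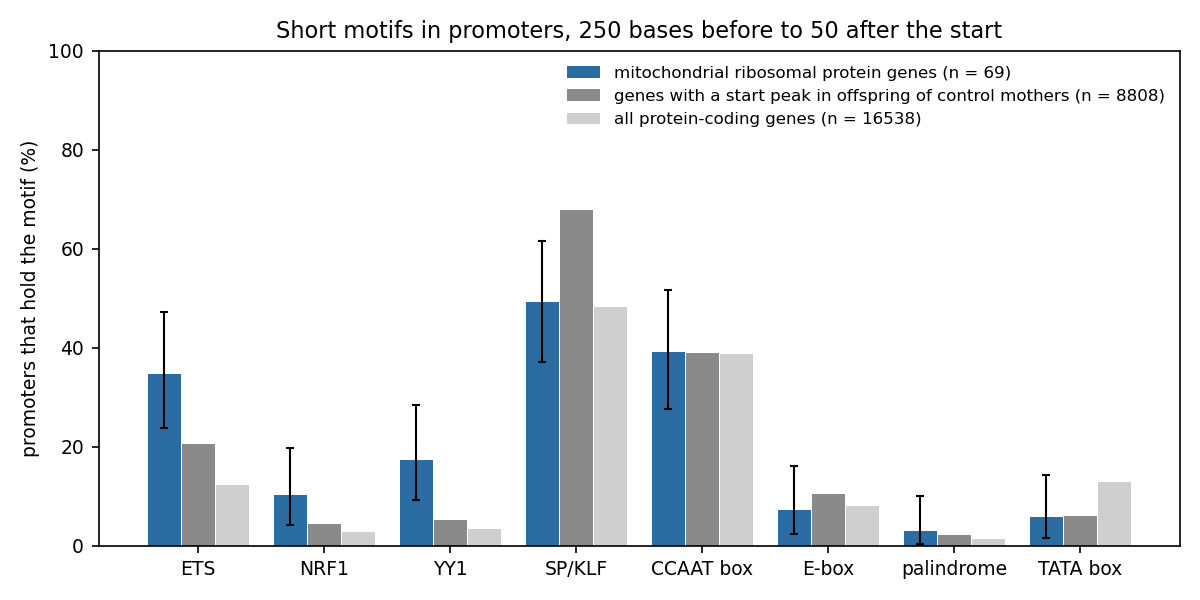
Share of promoters that hold each of 8 motifs on either strand (y axis, percent) in 69 mitochondrial ribosomal protein genes (blue, with exact 95% intervals), 8808 genes with a start peak in the control library (dark grey) and all 16538 protein-coding genes with a promoter sequence (light grey). The blue interval lies above both grey bars for ETS (34.8%) and YY1 (17.4%) and below the dark grey bar for SP/KLF (49.3%); the bar named palindrome is the motif of 8 letters spelled out in the text.

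Other genes of mitochondrial protein synthesis and transcription were counted in 5 lists. Over these lists the share of marked genes not listed in the maternal-asthma library ran from 14.3% to 23.5%, near the 19.1% of all marked protein-coding genes, while 50.9% and 41.9% of all protein-coding genes were marked. Of 5 mitoribosome proteins with other symbols (Dap3, Chchd1, Aurkaip1, Gadd45gip1 and Ptcd3), 5 had a start peak in the control library and 4 in the maternal-asthma library, Ptcd3 being the exception. Dap3, a small subunit protein, held 32 fragments in the control library and 21 in the maternal-asthma library. Of 14 translation factor genes, 14 and 12 had one. Tufm, the elongation factor that brings tRNA to the ribosome, held 32 fragments in the control library and had no listed start peak in the maternal-asthma library, and Mtrf1, a release factor gene, held 18 and had none. Of 26 genes of ribosome assembly and rRNA modification, 26 and 21 had one, with Fastkd2, Mtg1, Nsun4, Rpusd3 and Tfb1m absent in the maternal-asthma library.

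All 17 genes of mitochondrial aminoacyl-tRNA synthetases had a start peak in the control library and 14 in the maternal-asthma library. Lars2 and Nars2 were among those with one in the control library alone, Lars2 with 33 fragments there. Of 17 genes in a list of mitochondrial transcription and its regulators, 17 and 13 had a start peak. This list also holds Mtif2, a translation initiation factor gene that is counted among the translation factors too and was marked in both lists. Those listed in the control library alone were Polrmt, the mitochondrial RNA polymerase, Myc, and the coactivators Ppargc1a and Ppargc1b. Gabpa, Nrf1 and Yy1, which encode factors for the motifs above, were marked in both lists, with 30, 28 and 32 fragments in the control library and 20, 20 and 19 in the maternal-asthma library. Tfam, which packages mitochondrial DNA, held 26 and 22.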

How the data were processed

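Paired reads had been trimmed, aligned to GRCm38 with Bowtie 2 and freed of duplicates with Sambamba by the authors. One peak list per library was deposited, and the peak caller, its threshold and any use of an input are not given in the sources used here. The study's reporting summary states that peaks were not called for the ChIP-seq, so how the deposited lists arose is unclear. The deposited score was 10 times the −log10 q, rounded down, in nearly all peaks. The deposited fold is a ratio of the summit signal to the caller's background, while the deposited p-value and q-value of each peak against that background are on a −log10 scale. Fragments at summits were solved from fold and −log10 p under a Poisson model with 1 added to signal and background. The fit was checked on 2107 of 42126 control and 2581 of 51610 maternal-asthma peaks, and on the best start peaks. Whole fragments fitted 100% of these within 0.001. The model takes the peaks as called without a control.

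Starts came from GENCODE M21 (GRCm38). The start peak with the highest −log10 q represented a gene, and peaks are given in positions counted from 1. Shares have exact Clopper-Pearson 95% intervals. With 1 library per group no test was made. Promoter sequences were those of RefSeq. The members and the lists were chosen with earlier results of these data known. Genes named are those without a start peak in 1 or both lists, those with extreme percentiles, domain widths, summit offsets or changes of percentile, those with several start peaks, pairs within the set, the printed promoters, and, chosen after their values were seen, further neighbours and genes of the other mitochondrial lists. The symbol Gtpbp5 was not found and is Mtg2. The start peaks, solved fragments, motifs and copies were tested on simulated data. The scripts ran in Python 3.11.15 (matplotlib 3.10.9, pandas 2.3.3, numpy 2.4.6, scipy 1.17.1). Alternatives were distances of 500 and 2000 bp, a −log10 q of at least 5, the 10000 highest peaks, the 5′ end alone, other definitions of percentile, width and neighbour, other sets of genes and, chosen after seeing the data, percentiles at equal list length.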

Additional observations from a re-analysis of the deposited data

How the results depend on the processing

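No paired analysis was possible because each group had a single library. Of 95 alternative values, 73 stayed within the interval or within 1.5 times the count reported. Under all 8 settings, the reported one included, the control library had the higher share of genes with a start peak. With the 10000 highest peaks of each list, the shares were 76.9% and 10.3%, and 52 genes were listed in the control library alone. In the maternal-asthma library the median percentile was then 87.8, the width 364 bp and the summit offset -78 bp, over 8 genes. Percentiles were still taken within the full list, so a cut to the highest peaks keeps high percentiles by construction. With the 5′ end alone, 1 gene (Mrpl33) was listed in the maternal-asthma library alone. Of the 37 genes with no other start within 1000 bp, 34 had a control start peak, and 9 of these were listed in the control library alone. In the wider class of all marked protein-coding genes without an opposite start, 21.3% had none in the other list. For the 37 genes the median control percentile was 89.5, and in the maternal-asthma library the width was 210 bp and the offset 113 bp. In the control and the maternal-asthma library, the median percentile was 69.3 and 54.0 by domain width and 57.2 and 49.9 among genes with a start peak, and 74.7 in the maternal-asthma library by fold. The joined control domain was 607 bp wide. From the gene's 5′ end the offsets were 183 and 146 bp. With an overlap of at least 50% of both peaks, 44.2% and 60.0% of start peaks were shared. In 100 bases before to 50 after the start, 1.45% of promoters held a TATA box. A restriction to summits whose 75 bases have no copy elsewhere, chosen after seeing the data, removed no summit and so could change no count. Percentiles at equal list length, also chosen after seeing the data, gave a median change of -31.1 points. The depth, with 11 to 37 fragments at the summit of the best start peak of each gene, limits comparisons of single genes.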
